A study of Mus musculus with 12 samples.

Results

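The nuclear genes of oxidative phosphorylation were compared across 3 genotypes of Hotair, a long noncoding RNA gene of the HoxC cluster. Members were the gene rows whose symbol begins with Nduf, Sdh, Uqcr, Cox4, Cox5, Cox6, Cox7, Cox8 or Atp5 and whose level reached 1 RPKM (reads per kilobase of exon, scaled to the depth of the library) in at least 2 libraries. Of 94 rows with such a symbol 88 passed, among 10897 of 24132 gene rows that passed the same filter. By role, 74 were subunits (36 of complex I, 4 of complex II, 8 of complex III, 11 of complex IV and 15 of complex V). Another 10 were assembly or supercomplex factors, 2 were tissue isoforms, and Atp5s and Atp5sl are no stable subunits. Ndufa4, named for complex I, was counted in complex IV, to which it is now assigned. No member passed the filter through the libraries of 1 genotype alone.

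The cells were fibroblasts from the tail tips of neonatal mice backcrossed to C57BL6 (similarity over 97%), either Hotair wild type, heterozygous or knockout, with 2 poly(A) RNA-seq libraries for each genotype. Nothing in the labels says whether the 2 libraries of a genotype came from separate mice or cultures. The p-values below rest on the spread within these pairs of libraries and no more, and that spread may be technical. In bulk RNA, a change in the share of a cell type and a change in RNA per cell cannot be told apart. Depth recovered from the values was 29.6M and 27.9M read equivalents in wild type, 33.2M and 31.2M in heterozygous and 48.1M and 46.0M in knockout libraries. The smallest read equivalent of any member in any library was 36.6, for Cox6b2. Hotair was at 0.247 and 0.183 RPKM in wild type, 0.213 and 0.172 RPKM in heterozygous and 0 RPKM in both knockout libraries. The wild-type mean was at least 15-fold higher than the limit that a count of 0 allows in knockout (0.0143 RPKM, from 3 counts over both libraries). Fibroblast markers were abundant (Vim at 2665 and 2690 RPKM in wild type and 2147 and 2166 RPKM in knockout), and no keratinocyte or endothelial marker of 10 and 8 passed the filter.

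Oxidative phosphorylation moves electrons along the inner mitochondrial membrane and uses the resulting proton gradient to make ATP. Complex I takes electrons from NADH and complex II from succinate, ubiquinone carries them to complex III, and cytochrome c carries them on to complex IV, which reduces oxygen. Complex V, the ATP synthase, lets protons back through a membrane ring whose rotation drives ATP synthesis in the F1 head. Each complex combines catalytic subunits with many small accessory subunits. Complexes I, III, IV and V also hold subunits encoded by mitochondrial DNA, which the symbol rule does not take. Promoters of the nuclear genes are known for sites of the factors NRF1, GABPA (an ETS factor) and YY1.

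A gene is called higher or lower here where limma's moderated test on log2(RPKM + 1), over all genes tested, gave a Benjamini-Hochberg adjusted p under 0.05. Differences are on that log2 scale with the standard error (SE) of the fit, and they understate the change of low genes. In knockout against wild type 33 members were higher, 27 were lower and 28 were not called. Across all genes tested, 67.2% were called (40.6% higher and 26.6% lower), so a called member was no rarity. The median difference of the members was 0.03, against 0.06 over all genes tested. In heterozygous against wild type 19 members were higher and 27 lower, where 52.6% of all genes were called (35.5% higher and 17.1% lower). The members' median was -0.02 and that of all genes 0.07. In knockout against heterozygous 34 were higher and 18 lower, where 51.8% of all genes were called (26.4% higher and 25.4% lower), with medians of 0.04 and -0.001. The comparisons share libraries and are not independent of each other. Differences were small: Ndufa4l2 was the only member past 1 on the log2 scale in any of the 3 comparisons.

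The balance between higher and lower calls depended on how libraries were scaled to each other, for members and for all genes. In knockout against wild type the members higher and lower were 22 and 37 after scaling each library to its median. They were 23 and 36 after trimmed mean scaling, and 38 and 16 after quantile normalization. All genes tested had 3553 and 3898, 3644 and 3789, and 3254 and 3712 in the same order, from 4421 and 2903 as deposited. In heterozygous against wild type members had 12 and 43, 12 and 44, and 24 and 24. All genes had 2518 and 2902, 2550 and 2881, and 2397 and 2292. In knockout against heterozygous members had 33 and 18, 35 and 16, and 35 and 14. All genes had 2813 and 2857, 2909 and 2717, and 2574 and 2860. The 3 scalings shifted the median of all genes by -0.082 to 0.0026 over the 3 comparisons, and single members moved further, such as Atp5o from -0.11 to 0.04 with quantile normalization in knockout against wild type. The differences of single members in knockout against wild type ran from -0.43 to 1.17 on the same scale.

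**Figure D1:**
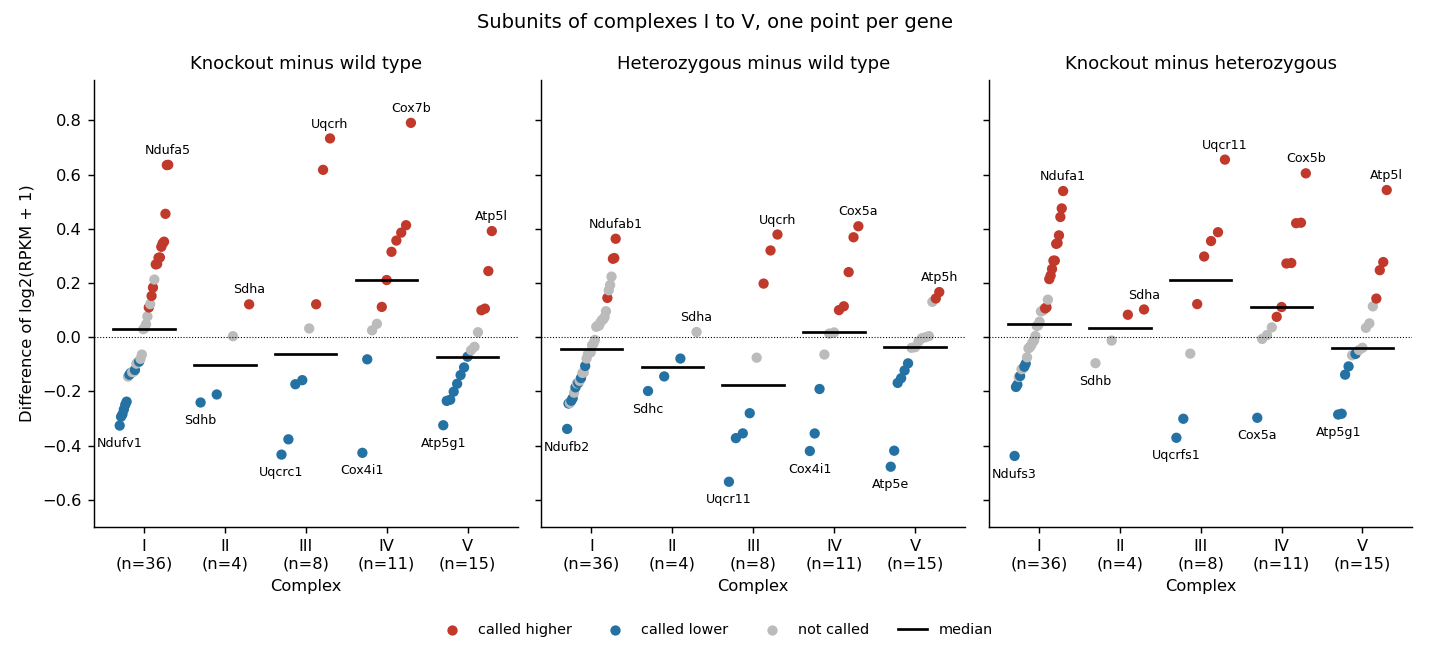
Differences of log2(RPKM + 1) for the 74 subunits by complex, 1 point per gene, in the 3 comparisons, coloured by limma call, with the median of each complex as a bar and the genes at either end named. Each complex but II spans called rises and called falls in every comparison. Complex IV has the highest median in knockout against wild type (0.21, or 0.16 with Ndufa4 counted in complex I). The medians of complexes I, III, IV and V change sign in at least 1 comparison with the scaling of the libraries.

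In complex I, the NADH dehydrogenase, 13 of 36 subunits were higher in knockout than in wild type and 10 were lower, with a median of 0.03. Median scaling (9 higher, 16 lower) and trimmed mean scaling (10 and 15) turned that balance. For comparison, here and in the complexes below, 40.6% of all genes tested were higher in knockout than in wild type and 26.6% lower. Ndufa1, a small accessory subunit, was at 17.3 and 16.4 RPKM in wild type, 18.3 and 17.8 RPKM in heterozygous and 26.0 and 27.3 RPKM in knockout. The knockout libraries stood apart from wild type by 0.63 (SE 0.04, adjusted p = 9.3e-06), and heterozygous was not called against wild type. Ndufa5, also accessory, was at 10.5 and 12.7 RPKM in wild type, 13.3 and 13.4 RPKM in heterozygous and 19.3 and 17.7 RPKM in knockout (0.64, SE 0.08, adjusted p = 0.00031). Among the accessory subunits 12 of 29 were higher in knockout and 7 lower, a balance that median scaling (8 and 11) and trimmed mean scaling (9 and 10) turned. Among the 7 core subunits of the peripheral arm 1 was higher and 3 were lower. Median and trimmed mean scaling each gave 5 lower, and quantile normalization gave 2. The fall of Ndufs8 (-0.28) was not called with quantile normalization (-0.20), without an intensity trend or without a filter on low values. Its call also ended without knockout replicate 2 (-0.12), wild-type replicate 1 (-0.28) or wild-type replicate 2 (-0.29). Ndufv1, which binds the flavin that oxidises NADH, fell from 43.6 and 41.6 RPKM to 33.8 and 33.7 RPKM in knockout (-0.33, SE 0.03, adjusted p = 8.7e-05), with 38.9 and 37.6 RPKM in heterozygous. Its partner Ndufv2 was higher in both mutant genotypes, at 24.8 and 23.1 RPKM in wild type, 30.8 and 28.2 RPKM in heterozygous and 32.0 and 29.4 RPKM in knockout. Genes of the same NADH-oxidising module moved in opposite directions, and the third, Ndufs1, was not called in any of the 3 comparisons (10.1 to 10.9 RPKM in all 6 libraries).

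Ndufs3, a core subunit next to the quinone-reducing end, was highest in heterozygous and lowest in knockout libraries. Its levels were 29.4 and 26.8 RPKM in wild type, 31.8 and 30.4 RPKM in heterozygous and 22.4 and 23.0 RPKM in knockout. The 3 genotypes did not overlap, and knockout lay 0.44 below heterozygous (SE 0.05, adjusted p = 0.00029). Ndufa10, an accessory subunit, showed a smaller fall between the same genotypes (-0.18, SE 0.03, adjusted p = 0.0011). In heterozygous against wild type 4 subunits of complex I were higher, 8 were lower and 24 were not called. Median and trimmed mean scaling each gave 3 higher, 18 lower and 15 not called. Of all genes tested 35.5% were higher and 17.1% lower in that comparison of the deposited values. Ndufab1, the mitochondrial acyl carrier protein, rose by 0.36 (SE 0.04) and Ndufc2 of the membrane arm by 0.29 (SE 0.03). Ndufb2 of the membrane arm fell by 0.34 (SE 0.04) and Ndufa13 by 0.25 (SE 0.03). Ndufb3, also of the membrane arm, was at 16.8 and 13.7 RPKM in heterozygous and 21.4 and 21.6 RPKM in knockout (0.48, SE 0.08, adjusted p = 0.0023).

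Complex II, succinate dehydrogenase, has 4 nuclear subunits and no mitochondrially encoded one. Sdha, the flavoprotein that binds succinate, was at 34.1 and 34.4 RPKM in wild type, 34.9 and 34.6 RPKM in heterozygous and 37.8 and 36.9 RPKM in knockout (0.12, SE 0.03, adjusted p = 0.0048), a call that median scaling ended (0.03, adjusted p = 0.33). The iron-sulphur subunit Sdhb went the other way, from 84.1 and 77.8 RPKM through 73.0 and 73.1 RPKM to 68.5 and 68.0 RPKM (-0.24 in knockout, SE 0.04, adjusted p = 0.00065). Sdhc, a membrane anchor, was at 74.9 and 70.2 RPKM in wild type, 61.6 and 64.5 RPKM in heterozygous and 62.6 and 62.3 RPKM in knockout. Sdhd, the other anchor, was lower in heterozygous (-0.08, SE 0.03, adjusted p = 0.036), a call that ended without 5 of the 6 libraries taken 1 at a time and with quantile normalization (-0.01). It was not called in knockout against wild type (0.003, SE 0.03). With median scaling it was lower in knockout (-0.09, adjusted p = 0.017).

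In complex III, the cytochrome bc1 complex, 3 of 8 subunits were higher in knockout than in wild type and 4 were lower, where quantile normalization gave 4 higher and 2 lower. The median of -0.06 was -0.02 without knockout replicate 1, -0.10 without knockout replicate 2 and -0.03 without wild-type replicate 2. Uqcrh, the acidic hinge protein at the cytochrome c docking site, was at 64.6 and 65.6 RPKM in wild type, 82.6 and 87.4 RPKM in heterozygous and 107 and 111 RPKM in knockout. It rose in steps without overlap, by 0.38 in heterozygous and 0.73 in knockout (SE 0.03 each, adjusted p = 9.8e-05 and 1.9e-06). Uqcrb, a small ubiquinone-binding subunit, was at 27.9 and 28.7 RPKM, 36.0 and 35.2 RPKM, and 43.1 and 44.8 RPKM in the same order (0.32 and 0.62). Uqcrc1, 1 of the large core proteins on the matrix side, fell instead, from 105 and 110 RPKM to 81.0 and 84.4 RPKM in heterozygous and 80.4 and 78.1 RPKM in knockout (-0.37 and -0.43, SE 0.03, adjusted p = 7.4e-05 and 1.5e-05). Its knockout libraries were not called against heterozygous (-0.06, SE 0.03). The other core protein, Uqcrc2, was near its wild-type level in heterozygous libraries (32.0 and 32.0 RPKM against 30.2 and 30.4 RPKM) and lower in knockout (25.1 and 23.8 RPKM; -0.38, SE 0.03). The Rieske iron-sulphur protein gene Uqcrfs1 was higher in heterozygous (33.2 and 33.8 RPKM) and lower in knockout (24.8 and 26.6 RPKM) than in wild type (29.8 and 28.4 RPKM). Quantile normalization ended the call in knockout against wild type (-0.11, adjusted p = 0.0505). Knockout lay 0.37 below heterozygous for Uqcrfs1 (SE 0.04, adjusted p = 0.00036).

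Other members of complex III had their lowest levels in heterozygous cells. Uqcr11, a small subunit of the complex, was at 131 and 140 RPKM in wild type, 93.5 and 93.4 RPKM in heterozygous and 143 and 152 RPKM in knockout. Heterozygous libraries lay 0.53 below wild type (SE 0.04, adjusted p = 3.5e-05) and 0.66 below knockout (SE 0.04, adjusted p = 1.7e-05). Uqcr10 was at 74.9 and 75.2 RPKM, 59.8 and 57.2 RPKM, and 73.5 and 80.2 RPKM in the same order. It differed between heterozygous and wild type by -0.36 (SE 0.04) and was not called in knockout against wild type (0.03, SE 0.04).

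In complex IV, cytochrome c oxidase, 7 of 11 subunits were higher in knockout than in wild type and 2 were lower, with a median of 0.21. With Ndufa4 counted in complex I instead, that median was 0.16. The counts stayed at 6 or more higher and 2 or fewer lower with the 3 other scalings. Cox7b, a small membrane subunit encoded on the X chromosome, was at 21.3 and 22.1 RPKM in wild type, 28.6 and 28.1 RPKM in heterozygous and 36.9 and 39.9 RPKM in knockout. It had the largest rise of any subunit in knockout, 0.79 (SE 0.04, adjusted p = 4.1e-06), after 0.37 in heterozygous. Cox5b was lowest in heterozygous libraries, at 86.0 and 84.2 RPKM in wild type, 74.5 and 74.3 RPKM in heterozygous and 114 RPKM in both knockout libraries (0.41 against wild type and 0.60 against heterozygous, SE 0.02 each). Cox5a had the opposite shape, at 71.1 and 68.6 RPKM in wild type, 92.6 and 93.5 RPKM in heterozygous and 73.4 and 77.7 RPKM in knockout. Heterozygous libraries exceeded wild type by 0.41 for Cox5a (SE 0.03, adjusted p = 6.3e-05). The call of Cox5a in knockout against wild type (0.11, adjusted p = 0.017) ended with median scaling (0.02, adjusted p = 0.57), without knockout replicate 2 (0.07) and without wild-type replicate 2 (0.09).

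Cox4i1, which joins complex IV early in its assembly and was its most abundant transcript per length, was at 376 and 358 RPKM in wild type, 268 and 280 RPKM in heterozygous and 269 and 276 RPKM in knockout. Both mutant genotypes lay below wild type by 0.42 and 0.43 (SE 0.03 each, adjusted p = 3.6e-05 and 1.4e-05), and they overlapped each other. Cox6a1, a small regulatory subunit, was at 242 and 247 RPKM in wild type, 192 and 190 RPKM in heterozygous and 235 and 227 RPKM in knockout (-0.36 in heterozygous, SE 0.02, adjusted p = 1.6e-05). Cox7a2, Cox8a and Ndufa4 rose in both mutant genotypes, by 0.31, 0.21 and 0.39 in knockout and by 0.24, 0.10 and 0.11 in heterozygous. The heterozygous calls of Cox8a and Ndufa4 ended with median scaling (0.01 and 0.03). Cox6b1 was not called in any comparison (137 to 149 RPKM in all 6 libraries).

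In complex V 4 of 15 subunits were higher in knockout than in wild type and 8 were lower, but quantile normalization gave 5 higher and 3 lower. All 5 subunits of the F1 head were among the lower ones. Atp5b, the catalytic beta subunit and the member with the highest level per length, was at 495 RPKM in both wild-type libraries, 442 and 438 RPKM in heterozygous and 424 and 419 RPKM in knockout. It fell in steps without overlap, by 0.17 and then 0.23 against wild type (SE 0.01 each, adjusted p = 4e-05 and 3.9e-06). Atp5a1, the alpha subunit, was at 207 and 205 RPKM, 191 and 195 RPKM, and 173 and 177 RPKM (-0.10 and -0.24), and its heterozygous call ended with quantile normalization (-0.01). Atp5c1, the rotor shaft, was at 46.4 and 48.3 RPKM in wild type, higher in heterozygous (52.0 and 52.7 RPKM) and lower in knockout (43.0 and 42.8 RPKM). For Atp5c1 the first difference ended with median scaling (0.06) and the second with quantile normalization (-0.05). Atp5e, the epsilon subunit, was at 70.0 and 73.7 RPKM in wild type, 51.3 RPKM in both heterozygous libraries and 59.4 and 65.4 RPKM in knockout (-0.48 in heterozygous, SE 0.04, adjusted p = 0.00016). Atp5d was lower in knockout by 0.07 (adjusted p = 0.03), a call that quantile normalization ended with a value of 0.01 and that also ended without any 1 of the wild-type or knockout libraries (-0.08 to -0.06). After that normalization 2 of the 5 F1 genes were called lower in knockout and none higher.

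The membrane ring of complex V is built from 1 protein, the c subunit, made from the 3 genes Atp5g1, Atp5g2 and Atp5g3. Atp5g1 was lower in knockout (63.8 and 65.3 RPKM) than in wild type (79.8 and 82.5 RPKM) and heterozygous (77.3 and 80.6 RPKM), by 0.33 and 0.29 (SE 0.03 each, adjusted p = 5.1e-05 and 0.00024). Atp5g2 (161 to 170 RPKM over the 6 libraries) and Atp5g3 (157 to 166 RPKM) were not called in any comparison of the deposited values. Their direction differed between scalings: with median scaling both were lower in knockout than in wild type (-0.14 and -0.07), and with quantile normalization Atp5g3 was higher (0.10). Of the peripheral stalk that holds F1 still, Atp5f1, Atp5h and Atp5j were higher in knockout by 0.11, 0.10 and 0.24, and Atp5o was lower by -0.11. The rises of Atp5f1 and Atp5h ended with median scaling (0.02 and 0.01), without knockout replicate 2 (0.09 and 0.07) and without wild-type replicate 2 (0.07 for each), and quantile normalization gave 0.04 for Atp5o. Atp5l, a small membrane subunit of the dimer interface, was at 138 and 142 RPKM in wild type, 125 and 126 RPKM in heterozygous and 187 and 180 RPKM in knockout (0.39 against wild type, SE 0.02, adjusted p = 8.4e-06). Its neighbour Atp5k was at 56.5 and 53.6 RPKM, 41.9 and 39.9 RPKM, and 48.1 and 49.3 RPKM (-0.42 in heterozygous, SE 0.04, adjusted p = 1e-04).

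**Figure D2:**
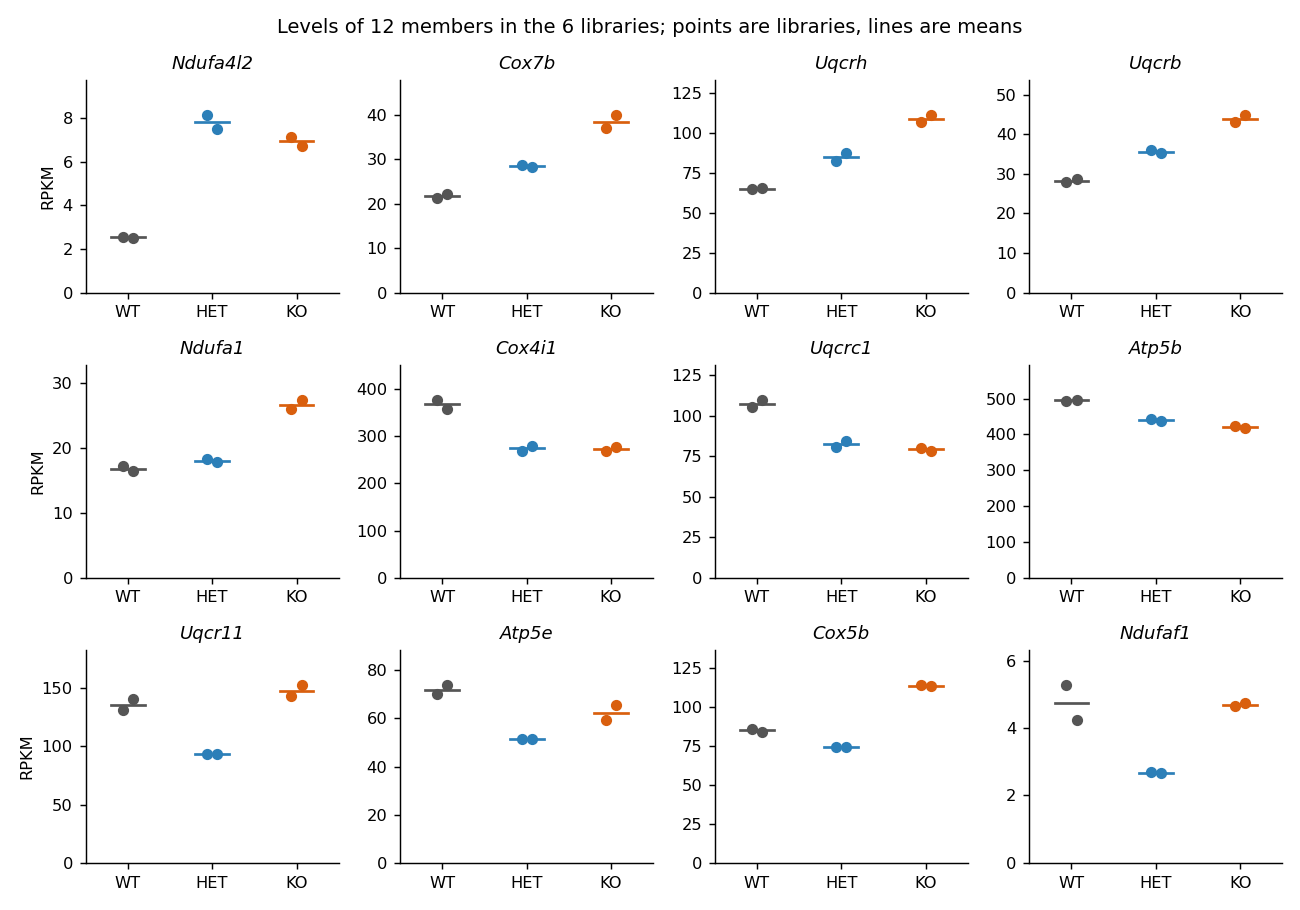
RPKM of 12 members in the 6 libraries on linear axes from 0, with points for libraries and lines for genotype means. Cox7b, Uqcrh and Uqcrb step upward from wild type through heterozygous to knockout, Atp5b and Uqcrc1 step downward, and Uqcr11, Atp5e, Cox5b and Ndufaf1 have their lowest values in both heterozygous libraries. The second step of Uqcrc1 is small and was not called in knockout against heterozygous (-0.06).

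Summed over the 74 subunits, the level was 5736 and 5750 RPKM in wild type, 5339 and 5392 RPKM in heterozygous and 5662 and 5698 RPKM in knockout. Against the wild-type mean the sum changed by -6.57% in heterozygous and by -1.09% in knockout libraries, with no overlap between genotypes. As a share of all RPKM values the subunits were 1.97% in both wild-type libraries, 1.90% in both heterozygous and 2.00% in both knockout libraries, so the direction in knockout depended on the denominator. Complex III differed most in heterozygous cells, with a change of -13.1% (646 ± 21.3 RPKM in wild type, 562 ± 6.70 RPKM in heterozygous and 662 ± 17.1 RPKM in knockout; SD, n = 2). The changes in heterozygous were -3.35% for complex I, -8.21% for complex II, -7.53% for complex IV and -5.98% for complex V. In knockout, complex II changed by -8.07% and complex V by -5.26%, while complexes I, III and IV changed by 1.34%, 2.43% and 1.87%. As a share of all RPKM values, complex I was 0.510% and 0.513% in wild type and 0.511% and 0.511% in heterozygous, with overlapping libraries. Complex III was still lower in heterozygous on that scale (0.198% and 0.200%, against 0.217% and 0.227% in wild type), and so was complex IV (0.448% and 0.455%, against 0.477% and 0.468%). Complex II (0.0783% and 0.0789%, against 0.0850% and 0.0807%) and complex V (0.664% and 0.659%, against 0.679% and 0.683%) were lower as well. A few abundant genes dominate these sums, among them Atp5b, Cox4i1 and Cox6a1.

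**Figure D3:**
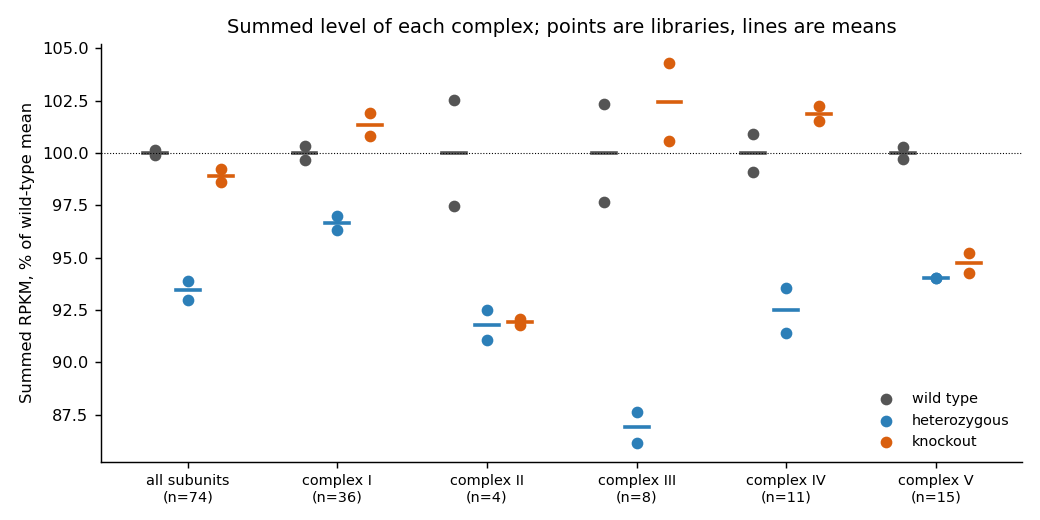
Summed RPKM of the subunits of each complex in each library, as a percentage of the wild-type mean on an axis that does not start at 0. Heterozygous libraries lie below both wild-type libraries for each complex, from -3.35% for complex I to -13.1% for complex III, and knockout libraries lie below both wild-type libraries for complexes II and V; for complex I the heterozygous difference is gone when the sum is taken as a share of all RPKM.

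Across the 3 genotypes, 13 members rose in steps from wild type through heterozygous to knockout with no overlap of libraries (14.8% of members, 22.7% of all genes tested), and 9 fell in steps (10.2%, against 12.2%). That balance depended on scaling. After median, trimmed mean and quantile scaling 5, 6 and 14 members rose in steps, against 17.8%, 18.4% and 15.5% of genes. In the same order 14, 13 and 6 members fell in steps, against 18.5%, 17.8% and 16.0% of genes. Both heterozygous libraries were below the other 4 in 22 members, 25% of them, against 8.8% of all genes. Both were above the other 4 in 14 members (15.9%, against 18.1%). Knockout libraries were below the other 4 in 19 members (21.6%, against 25.5%) and above them in 28 (31.8%, against 32.6%). The share with the lowest values in heterozygous libraries was 30.7%, 31.8% and 22.7% of members after median, trimmed mean and quantile scaling, against 12.1%, 12.4% and 11.9% of genes. Of the 22 members, 21, 22 and 19 had the pattern after those scalings. They were Ndufa3, Ndufa11, Ndufa13, Ndufb2, Ndufb3, Ndufb4, Ndufb6, Ndufb11 and Ndufv3 of complex I, Sdhd, Uqcr10, Uqcr11, Uqcrq, Cox5b, Cox6a1, Atp5d, Atp5e, Atp5k and Atp5l of the other complexes, the isoform Cox6b2, and the assembly factors Ndufaf1 and Ndufaf2.

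Exon length, recovered from the deposited values, moved with these differences. The members' exons spanned 256 to 3635 bp with a median of 760.5 bp, against 2743 bp over all genes tested. In knockout against heterozygous, Spearman's rho between length and difference was -0.47 over the 88 members and -0.13 over 2243 other genes with a mean of 20 RPKM or more, but 0.10 over all 10897 genes tested. In knockout against wild type it was -0.23 over the members, -0.09 over those other genes and 0.19 over all genes. In heterozygous against wild type it was 0.21 over the members, 0.05 over those other genes and 0.19 over all genes. Genes of 1 library set share depth and preparation, so these are descriptions. Of the 42 members with exons under 700 bp, 24 were higher and 3 lower in knockout against heterozygous (median 0.24). Of 209 other genes of that length and of 20 RPKM or more, 106 were higher and 59 lower (median 0.09). The heterozygous-lowest pattern was found in 15 of the 42 short members (35.7%) and in 61 of the 209 other short genes (29.2%). At 700 to 1400 bp it was found in 16% of 25 members and 18.8% of 490 other genes, and at 1400 bp or more in 14.3% of 21 members and 8.87% of 1544 other genes. The part of exon length in these shares was not tested.

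**Figure D4:**
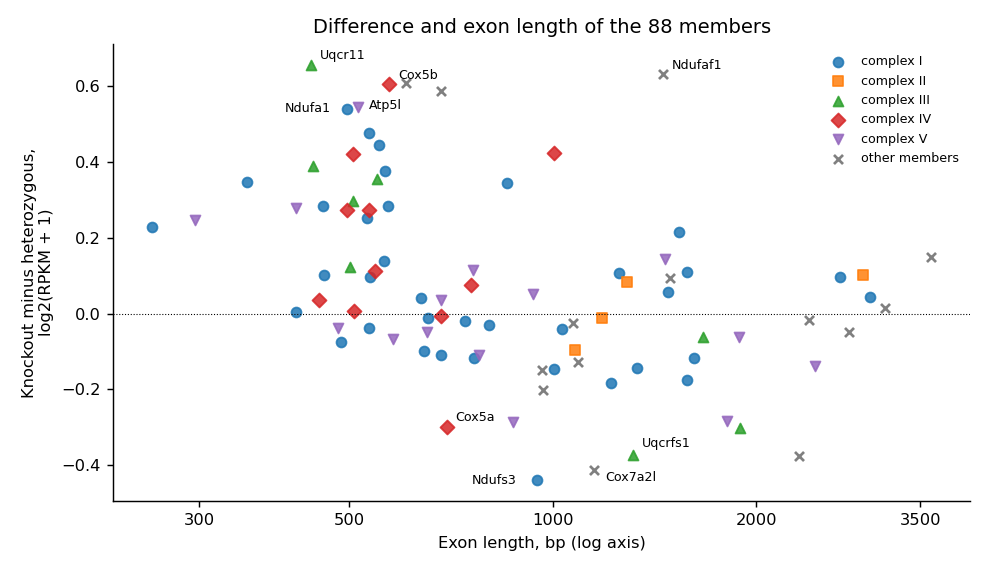
Knockout minus heterozygous difference of log2(RPKM + 1) against exon length on a log axis, 1 point per member, with a symbol for each complex. Members under 700 bp lie mostly above 0 (24 called higher, 3 lower), among them Uqcr11, Cox5b, Atp5l and Ndufa1, while Ndufs3, Cox7a2l and Uqcrfs1 among the longer ones lie below it and Ndufaf1 lies above.

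Promoter sequences are shown for members with clear patterns across genotypes, as the 200 bases before the gene start in RefSeq (GRCm38.p6), 5′ to 3′ on the gene's strand. Capitals mark matches on either strand to an NRF1 motif (the 10-letter palindrome seen in Atp5k) and to an ETS motif (CCGGAAG). Uqcr11 (chr10:80406822-80407021, minus strand), Cox6a1 (chr5:115348959-115349158, minus) and Atp5k (chr5:108434400-108434599, minus) stand for the members lowest in heterozygous. Uqcrh (chr4:116075071-116075270, minus) and Cox7b (chrX:106015500-106015699, plus) stand for those rising in steps, and Atp5b (chr10:128083107-128083306, plus) for those falling in steps.
Uqcr11: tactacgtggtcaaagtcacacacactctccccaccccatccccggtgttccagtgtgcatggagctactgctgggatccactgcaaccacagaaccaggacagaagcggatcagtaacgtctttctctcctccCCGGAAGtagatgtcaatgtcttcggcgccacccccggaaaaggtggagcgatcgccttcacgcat
Cox6a1: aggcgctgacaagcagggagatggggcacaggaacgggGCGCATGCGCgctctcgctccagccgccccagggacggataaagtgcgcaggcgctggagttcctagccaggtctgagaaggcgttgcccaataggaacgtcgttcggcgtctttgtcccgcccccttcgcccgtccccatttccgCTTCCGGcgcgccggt
Atp5k: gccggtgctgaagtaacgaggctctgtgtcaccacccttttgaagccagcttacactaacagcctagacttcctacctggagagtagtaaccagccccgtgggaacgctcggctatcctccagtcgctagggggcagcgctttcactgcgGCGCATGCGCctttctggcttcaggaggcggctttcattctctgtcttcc
Uqcrh: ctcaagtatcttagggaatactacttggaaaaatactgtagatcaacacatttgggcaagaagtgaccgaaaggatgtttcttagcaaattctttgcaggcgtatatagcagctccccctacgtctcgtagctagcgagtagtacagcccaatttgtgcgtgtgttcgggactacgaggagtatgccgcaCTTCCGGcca
Cox7b: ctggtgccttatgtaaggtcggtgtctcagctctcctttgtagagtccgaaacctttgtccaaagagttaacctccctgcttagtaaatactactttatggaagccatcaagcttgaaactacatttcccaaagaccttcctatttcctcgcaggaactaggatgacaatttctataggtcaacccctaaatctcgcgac
Atp5b: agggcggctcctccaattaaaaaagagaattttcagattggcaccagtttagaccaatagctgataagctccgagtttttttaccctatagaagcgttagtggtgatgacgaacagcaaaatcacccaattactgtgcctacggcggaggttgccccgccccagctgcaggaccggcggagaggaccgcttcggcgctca

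In these 200 bases Cox6a1 holds both motifs, Atp5k an NRF1 match, Uqcr11 and Uqcrh an ETS match, and Cox7b and Atp5b neither. Promoters of 300 bases, from 250 before to 50 after the gene start, were matched for 75 of the 88 members, 3 of them through an older symbol. An NRF1 match on either strand was in 7 of the 75 (9.33%), against 2.53% of the 7941 genes tested that have a promoter in the table and 1.07% of all 27018. An ETS match was in 19 (25.3%), against 21.3% and 9.93%, and a match to a 10-letter YY1 motif built on ATGGCGG in 6 (8%), against 2.66% and 0.992%. The box GGGCGG was in 46.7% of the members' promoters and 72.0% of those of tested genes, and CCAAT in 44% and 42.7%. All 5 motifs were searched on both strands, and none contains another. Of the 21 heterozygous-lowest members with a promoter, 8 held an ETS match, 3 an NRF1 match and none a YY1 match. The step groups were taken from the deposited values, and their membership changed with scaling. Of the 12 that rose in steps, 3 held an ETS match, 1 an NRF1 match and 2 a YY1 match. Of the 7 that fell in steps, 1 held each. A match to NRF1, ETS or YY1 was in 42.9% of the heterozygous-lowest, 41.7% of the rising and 42.9% of the falling members. Among all 75 members it was in 38.7%, and among tested genes in 25.15%. The printed promoters are examples and do not show a difference between these patterns. Matches to letters are descriptions, not binding sites.

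Tissue isoforms replace widely expressed subunits in muscle, lung, testis or hypoxic cells. Ndufa4l2, a hypoxia-induced paralog of Ndufa4, was at 2.55 and 2.51 RPKM in wild type, 8.14 and 7.50 RPKM in heterozygous and 7.15 and 6.75 RPKM in knockout. Both mutant genotypes were above wild type without overlap, by 1.32 and 1.17 (SE 0.05, adjusted p = 2.3e-06 and 1.9e-06), or 3.09-fold and 2.75-fold in RPKM. Ndufa4 itself was at 56.2 and 55.6 RPKM in wild type and 73.2 and 73.4 RPKM in knockout. Cox6b2, the testis form of Cox6b1, was at 3.37 and 3.38 RPKM in wild type, 1.81 and 2.57 RPKM in heterozygous and 3.94 and 3.71 RPKM in knockout (-0.47 in heterozygous, SE 0.10, adjusted p = 0.0073). The 6 rows that failed the filter were all tissue isoforms of complex IV. Cox7b2, Cox8b and Cox8c were at 0 in every library, Cox4i2 reached at most 0.279 RPKM and Cox6a2 at most 0.144 RPKM. Cox7a1 lay just outside, above 1 RPKM in 1 heterozygous library alone and at 0.274 to 0.628 RPKM in the others. Just inside was Atp5s, at 0.981 to 1.78 RPKM, which was not called in any comparison, nor was Atp5sl (2.58 to 3.03 RPKM).

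Assembly factors build the complexes and are not part of the finished enzyme. Of the 10 assembly or supercomplex factors, 4 were higher and 1 lower in knockout than in wild type, and 4 were higher and 2 lower in heterozygous. Of all genes tested 40.6% were higher and 26.6% lower in knockout, and 35.5% and 17.1% in heterozygous. So few counts, near those shares for the higher calls, say nothing particular about these factors. The 1 factor lower in knockout was the supercomplex factor Cox7a2l, which was also among the 4 factors higher in heterozygous. Ndufaf1, which acts on the membrane arm of complex I, was at 5.26 and 4.23 RPKM in wild type, 2.68 and 2.66 RPKM in heterozygous and 4.64 and 4.73 RPKM in knockout. Only the heterozygous libraries stood apart, by -0.64 (SE 0.08, adjusted p = 0.00058). Ndufaf2 was at 7.01 and 7.88 RPKM, 6.15 and 6.69 RPKM, and 9.95 and 10.3 RPKM, and was called in all 3 comparisons. The call of Ndufaf2 in heterozygous (-0.19) ended without heterozygous replicate 1 (-0.13) or wild-type replicate 2 (-0.11). It also ended without either knockout library and with only the 2 groups compared, with the difference still at -0.19. Ndufaf7, another complex I assembly factor, had the opposite shape to Ndufaf1, at 2.15 and 2.14 RPKM in wild type, 3.41 and 3.25 RPKM in heterozygous and 2.20 and 2.47 RPKM in knockout. Ndufaf4 was higher in knockout by 0.34 and Ndufaf6 by 0.15, calls that ended with quantile normalization (0.12 and -0.06) and without knockout replicate 1 (0.27 and 0.12). Ndufaf3 and Ndufaf5 were not called in any comparison. Of the complex II factors, Sdhaf1 was higher in heterozygous by 0.21 and Sdhaf2 in knockout by 0.12, and both calls ended with median scaling (0.13 and 0.04) and with single libraries left out.

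Cox7a2l, which joins complexes III and IV into a supercomplex, was at 86.2 and 83.9 RPKM in wild type, 93.6 and 90.9 RPKM in heterozygous and 69.4 and 68.8 RPKM in knockout. It was higher in heterozygous by 0.12 and lower in knockout by 0.30 than in wild type, each without overlap (SE 0.02, adjusted p = 0.0059 and 3.4e-05), and the first call ended with median scaling (0.03). C57BL6 mice are known to carry a short Cox7a2l allele whose protein fails to join the complexes, and these gene totals do not separate alleles or isoforms. Many small subunits have processed pseudogenes or close paralogs, such as the 3 c subunit genes and Cox7a2 with Cox7a2l. The treatment of reads shared by such copies is not stated in the labels, and the split between them is uncertain.

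Mitochondrial genes outside the symbol rule were read from lists, in knockout against wild type. Of all genes tested 40.6% were higher and 26.6% lower in that comparison, so counts near those shares say nothing particular about a list. Of 13 other electron transport and ATP synthase genes tested, 5 were higher in knockout than in wild type and 4 lower. Cyc1, the cytochrome c1 of complex III, fell by 0.32 (SE 0.03), the phosphate carrier Slc25a3 by 0.14 (SE 0.02), and the ATP synthase inhibitor Atpif1 rose by 0.51 (SE 0.05). Of 33 further assembly factors 7 were higher and 13 lower, with Cox20 at 0.47, Coa5 at -0.28 and Tmem70, a factor for complex V, at -0.40. Of 17 citric acid cycle genes 3 were higher and 9 lower, among them citrate synthase Cs (-0.27), Dlst (-0.31) and Mdh2 (-0.26). Of 21 import genes 6 were higher and 8 lower, with Tomm40 at -0.33, Timm13 at -0.35 and Timm17a at -0.41. Of 75 mitochondrial ribosome genes 25 were higher and 21 lower, with Mrpl42 at 0.68, Mrpl33 at 0.40 and Mrpl54 at -0.32. Of 14 regulators of mitochondrial biogenesis 5 were higher and 2 lower. Gabpa, the ETS factor named above, was at 3.44 and 3.17 RPKM in wild type, 4.47 and 4.17 RPKM in heterozygous and 6.00 and 5.65 RPKM in knockout (0.67, SE 0.05, adjusted p = 3.5e-05). Tfb2m, a mitochondrial transcription factor, rose by 0.42 and Myc by 0.23.

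Markers of other cells moved with genotype, where 40.6% of all genes tested were higher in knockout than in wild type and 26.6% lower. Of 17 macrophage and leukocyte markers 8 were tested and none was at 0 in every library. Their sum over the list was 10.4 to 11.6 RPKM in wild type, 8.43 to 9.19 RPKM in heterozygous and 62.2 to 63.1 RPKM in knockout, with 7 of 8 higher in knockout (Cd68 by 2.15, Lyz1 by 1.91 and Lyz2 by 2.58). Of 6 osteoclast markers tested 4 were higher and 2 lower, and the list's sum was 34.3 to 34.9 RPKM in wild type, 23.4 to 26.1 RPKM in heterozygous and 60.4 RPKM in knockout (Acp5 by 3.86, Mmp9 by 2.29, Itgb3 by -0.98). Of 21 muscle markers 3 were tested, Acta1 (-0.62), Actc1 (-1.02) and Des (0.91), and their list's sum fell from 277 RPKM to 177 to 182 RPKM in heterozygous and 178 RPKM in knockout. Of 9 brown adipocyte markers only 2 were tested, and 3 were at 0 in every library. The list summed to 3.33 to 3.50 RPKM in wild type, 4.41 to 4.43 RPKM in heterozygous and 9.63 to 9.93 RPKM in knockout, from Fabp4 and Zic1. Schwann cell markers summed to 28.0 and 28.1 RPKM, 34.5 to 35.6 RPKM and 16.0 to 16.8 RPKM, with 4 of 5 lower in knockout (Ngfr by -0.84, Sox10 by -0.53, Erbb3 by -0.26). Of 11 fibroblast markers 4 were higher and 6 lower (S100a4 by 0.65 and Vim by -0.31, with Thy1 at 193 and 188 RPKM in wild type and 94.0 and 95.6 RPKM in knockout), and of 19 cell cycle genes 18 were higher in knockout (Top2a by 1.10 and Ccna2 by 0.84, with Mki67 at 0.210 and 0.208 RPKM in wild type and 1.43 and 1.40 RPKM in knockout). Mki67 was under 1 RPKM in both wild-type libraries and above it in both knockout libraries, so the filter favoured a higher call. The same can hold for other low genes of these lists, such as the macrophage and leukocyte markers, of which 8 of 17 were tested. Counts of higher genes in these lists are therefore descriptions only. The part of these other cell types or of cell cycling in the members' differences was not tested.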

How the data were processed

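The authors' deposited table holds, for each gene symbol, a value in each RNA library, with no unit in its header. The deposited values behave as RPKM that the authors made from aligned bases over exons, scaled to gene length and library total. TopHat was the aligner and mm9 the genome build, per the submitters' processing notes. RNA was poly(A)-selected and libraries marked the strand by dUTP, per the labels' protocols. Counting tool, annotation, use of strand and treatment of multiply mapped reads: not given in the sources used here. ChIP-seq samples were not analysed here.

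Depth and exon lengths were recovered from the values with a read taken as 37 bases. Lengths were found for 18886 of 18888 genes above 0. Since 9.50% of values lay within 0.01 reads of a whole number, no count model was used. Genes reaching 1 RPKM in 2 libraries were transformed to log2(RPKM + 1) and fitted in 1 model with 3 group means by limma 3.58.1 in R 4.3.3. The test was two-sided, used eBayes with an intensity trend and 3 residual degrees of freedom, and was adjusted by Benjamini-Hochberg over 10897 genes at a threshold of 0.05. The fit was tested on simulated data.

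Members and lists were chosen with earlier results of these data known. Named were, in each complex and comparison, up to 2 called members with the largest rise and 2 with the largest fall, chosen core subunits, the c subunit genes, isoforms, assembly factors, and up to 3 genes with the smallest p per list. Alternatives were other pseudocounts (0.1 and 5), filters (none and 5 RPKM), scalings, no trend, only the groups compared, the replicate number as block, and each library left out. The medians of complexes I and IV were also taken with Ndufa4 counted in complex I.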

Additional observations from a re-analysis of the deposited data

How the results depend on the processing

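The members' median difference, knockout against wild type, turned to -0.055 with median scaling, -0.045 with trimmed mean scaling and -0.00493 without knockout replicate 2. That of complex I turned to -0.056, -0.046 and -0.048 (up to 0.041 with other libraries left out). In heterozygous against wild type the members' median was -0.096 and -0.094 with median and trimmed mean scaling, with 12 and 12 members higher and 43 and 44 lower, and that of complex IV turned to -0.068 and -0.067. Quantile normalization left 16 members lower in knockout against wild type, and turned the medians of complex III (0.022) and complex V (0.040) in that comparison, and of complex V in knockout against heterozygous (0.029, and from -0.053 to 0.028 with libraries left out, the latter without knockout replicate 1) and in heterozygous against wild type (0.011). It turned Atp5d (0.015), Atp5o (0.040), Ndufaf5 (-0.18) and Ndufaf6 (-0.057) in knockout against wild type, and Atp5g2 (0.10), Atp5g3 (0.076) and Atp5o (0.066) in heterozygous against wild type. Median and trimmed mean scaling turned Atp5g3 (-0.073 and -0.063) and Sdhd (-0.086 and -0.077) in knockout against wild type and Slc25a3 (-0.049 and -0.047) in heterozygous against wild type. Against genes of a like mean level, the members' median lay 0.022 above in knockout against wild type. The cause of these changes was not tested.

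With each library left out in turn, 27 to 35 members were higher and 23 to 28 lower in knockout against wild type (median -0.00493 to 0.047), 17 to 20 and 26 to 29 in heterozygous against wild type, and 25 to 35 and 16 to 18 in knockout against heterozygous. A lone library was then assumed to vary like the other groups. Deviations of same-numbered libraries had correlations of -0.0882, -0.062 and 0.0648, so the numbers were not taken to pair them. With the replicate block 34 members were higher and 28 lower in knockout against wild type, 19 and 27 in heterozygous against wild type, and 33 and 20 in knockout against heterozygous. Patterns under other scalings and by exon length were checked after seeing the data. With 2 libraries per genotype the spread rests on 3 residual degrees of freedom, and depth differed between genotypes.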
